A study of Mus musculus with 24 samples.

Results

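Mouse embryonic stem (ES) cells of the R1 line carried a lentiviral short hairpin RNA (shMed12-1) against Med12 and were compared, 13 days after infection, with R1 cells that carried a non-targeting control hairpin (shNTC) for the same time. The arrays were chosen by their titles: 3 shMed12-1 arrays and 3 shNTC arrays, 6 of the 24 arrays of the series. Further day 13 groups of R1 cells serve below for direct comparisons: shMed12-2, a second hairpin against Med12 (3 arrays), and shCdk8-1 and shCdk8-2, hairpins against Cdk8 (3 arrays each). The remaining 9 arrays, from day 8 after infection (shCdk8-1, shCdk8-2 and shNTC), entered the shared estimate of the spread, the probe filter and the slide effects, and are shown where values are given by slide or over all arrays. All groups were infected with lentivirus, the control included. Each result below is that of 1 hairpin sequence, and the labels do not say whether infected cells were selected or grown on feeder cells. Nothing in the labels says that the 3 arrays of a group came from separate cultures or infections. The p-values therefore measure only how far these arrays spread, which may be technical.

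MED12 belongs to the dissociable kinase module of Mediator, which carries signals from enhancer-bound transcription factors to RNA polymerase II. Within the module MED12 activates the cyclin C-CDK8 (or CDK19) kinase, MED13 ties the module to the core complex, and the module can block or favour transcription according to the gene. ES cells keep their identity through POU5F1 (Oct4), SOX2 and a circle of naive factors such as KLF4 and ESRRB. Loss of POU5F1 is known to turn ES cells towards trophectoderm, the epithelium that contributes to the placenta, while exit towards the embryo proper passes through the primed epiblast.

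RNA of the cells was labelled with Cy5 and a universal mouse reference RNA with Cy3, and both were hybridised to one Agilent array. Values below are log2 ratios of Cy5 to Cy3 (a level relative to the reference) and differences between groups are differences of these log2 ratios, with the standard error (SE) of the fit. Between 60.3% and 72.5% of the spots on the shMed12-1 arrays were well above background in Cy5, against 62.9% to 67.2% on the shNTC arrays, and no spot was saturated. The log ratios of shMed12-1 arrays correlated with each other at 0.987 to 0.992 and those of shNTC arrays at 0.994 to 0.995 across genes. On shMed12-1 replicate 3, 6 spots in Cy5 and 5 in Cy3 lay more than 50 intensity units below their local background, down to -3390.5 and -4987.5, while the other 5 arrays had none. With the background model fitted on all spots, these few spots pulled its mean to -174.823 in Cy5 and -170.54 in Cy3, and the log ratios of that array had a slope of 0.76 on the other replicates. With such spots left out of the fit, as in the values below, the slope was 1.00. No slide held arrays of both groups: the shMed12-1 arrays were on slides 4, 5 and 6 and the shNTC arrays on slides 8, 1 and 2, so slide and group can be separated only through the other groups, by a fit with slide as a block.

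The targeted transcript was lower in all shMed12-1 arrays. Med12 had log2 ratios of -2.01, -2.03 and -2.13 in shMed12-1 cells, against -1.11, -0.88 and -0.97 in shNTC cells. All 3 shMed12-1 arrays lay below all 3 shNTC arrays. The difference was -1.07 (SE 0.08, adjusted p = 6.7e-10), a 2.09-fold fall, and a second Med12 probe gave -1.05. Under all 22 alternatives run, the difference stayed between -1.26 and -1.0. The other measured members of the module did not pass the test: Cdk8 differed by 0.07 (adjusted p = 0.58), its paralog Cdk19 by 0.05, cyclin C (Ccnc) by 0.02 and Med13l by -0.08. Among 23 tested subunits of core Mediator, 2 rose and 3 fell, against 26.7% of all genes called in either direction, and none of the 5 moved by more than 0.30. Med25 fell by 0.30 and Med18 by 0.25, while Med10 rose by 0.26. The calls of Med18 and Med10 were lost with slide as a block (adjusted p = 0.403 and 0.0999), and a second probe for Med25 gave -0.02.

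Of 22394 genes tested, 5975 (26.7%) passed an adjusted p of 0.05, 2991 higher (13.4%) and 2984 lower (13.3%) in shMed12-1 cells. The groups did not overlap for 10129 genes (45.2%), so a lack of overlap alone says little about a gene. Most of these differences were small: 120 genes rose at least 2-fold (0.536%) and 28 fell at least 2-fold (0.125%). With slide as a block the count was 2725, 1504 higher and 1221 lower of 22394. Counts of list members in that fit are to be read against these. In both fits 2413 genes, 40.4% of the 5975, were called in the same direction. Of the genes past 2-fold, 115 of the 120 higher and 27 of the 28 lower ones were also called in that direction with slide as a block.

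**Figure D1:**
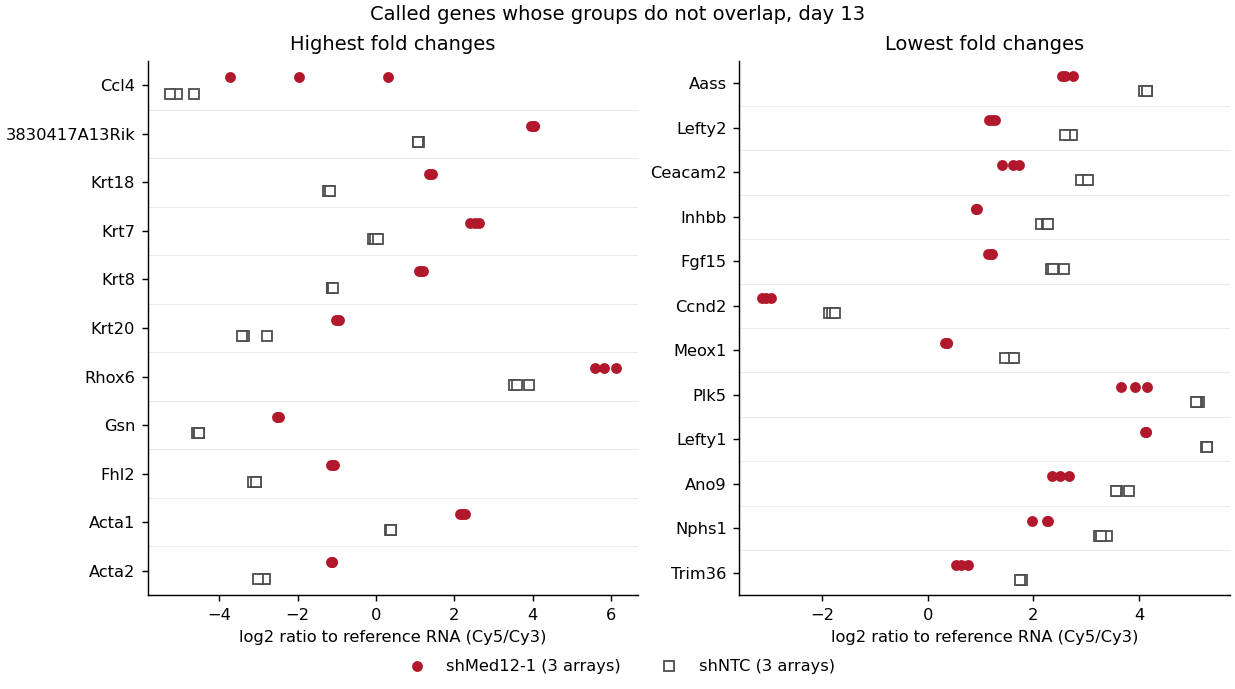
Log2 ratio to the reference RNA (horizontal axis) of genes with the highest (left) and lowest (right) fold changes among called genes with a symbol whose groups do not overlap, with 1 point per array (filled, shMed12-1; open, shNTC). Arrays of a group lie close together for Krt18 (1.34 to 1.42 in shMed12-1 cells, -1.22 to -1.17 in shNTC cells) and are far apart for Ccl4 (-3.74 to 0.31 in shMed12-1 cells).

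Keratins of simple epithelia stood at the top of the list. Krt18 was at 1.42, 1.38 and 1.34 in shMed12-1 cells, against -1.21, -1.22 and -1.17 in shNTC cells. Krt8, its partner in the keratin filament, was at 1.19, 1.14 and 1.09 in shMed12-1 cells, against -1.12, -1.13 and -1.09 in shNTC cells. Krt7 was at 2.39, 2.53 and 2.64 in shMed12-1 cells, against -0.09, -0.02 and 0.05 in shNTC cells. For all 3 keratins the arrays of each group lay within 0.25 log2 units of each other and the groups were far apart. The rises were 2.58 for Krt18 (SE 0.05, 5.99-fold, adjusted p = 3.8e-19), 2.25 for Krt8 (SE 0.06, 4.77-fold, adjusted p = 2.8e-17) and 2.54 for Krt7 (SE 0.09, 5.81-fold, adjusted p = 3.1e-15). Krt20, a keratin of gut and bladder epithelium, rose by 2.21 and Krt19 by 1.29, and with slide as a block all 5 keratins stayed called, at 1.35 to 2.54. Cldn4, a protein of epithelial tight junctions, rose by 1.58 (SE 0.21, adjusted p = 5.3e-06). It was not called in the authors' deposited values, which match the scanner's own log ratios. In the list of cadherins and epithelial-mesenchymal transition genes, 12 of 28 tested members rose and 0 fell (13.4% and 13.3% of all genes), with a median of 0.16 against -0.0016 for all genes. E-cadherin (Cdh1) differed by 0.18 and was not called, while the zinc finger repressor Zeb2 rose by 0.75.

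Genes of the trophectoderm rose as a group. Of 21 tested members of that list, 13 rose and 1, Bmp4, fell (-0.27), against 13.4% and 13.3% of all genes. The median difference was 0.95. With slide as a block 13 were higher and 0 lower (1504 and 1221 of all 22394 genes), with a median of 1.02. Rhox6, an X-linked homeobox gene active in placenta and germ cells, was at 5.82, 5.59 and 6.12 in shMed12-1 cells, against 3.90, 3.53 and 3.61 in shNTC cells. All shMed12-1 arrays were above all shNTC arrays, by 2.16 on average (SE 0.14, 4.47-fold, adjusted p = 1.6e-10). Hand1, a transcription factor of trophoblast giant cells, rose by 1.06 and Gata3, a zinc finger factor of early trophectoderm, by 1.77. Hand1 was not called in the authors' deposited values. Chosen after their values were seen, Gata2 (1.75), Esx1 (1.44), Sct (1.16), Rhox9 (1.13) and Plac1 (0.95) were higher in shMed12-1 cells as well. Other factors of the lineage did not pass the test: Cdx2 differed by 0.32 (adjusted p = 0.087), Eomes by 0.22 and Tfap2c by 0.09. Elf5 was not well above background on any of the 6 arrays. The summed Cy5 intensity of the trophectoderm markers was 4488 to 5402 in shMed12-1 cells, against 2222 to 2309 in shNTC cells. In such bulk samples more cells of a type and more RNA per cell cannot be told apart.

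Contractile and cytoskeletal genes rose nearly without exception. Of 26 tested, 24 rose and 0 fell (13.4% and 13.3% of all genes), with a median of 0.79. With slide as a block 22 were still higher (1504 of all 22394 genes). This list was likewise drawn up with earlier results of these data known. It also holds the keratins Krt8 and Krt18, which are counted among the trophectoderm genes too. It shares members, Acta2 and Vcl among them, with the SRF and YAP targets, so the lists are not separate sets of genes. The skeletal muscle actin Acta1 was at 2.20, 2.14 and 2.28 in shMed12-1 cells, against 0.38, 0.35 and 0.37 in shNTC cells. The smooth muscle actin Acta2 was at -1.12, -1.12 and -1.14 in shMed12-1 cells, against -2.89, -2.83 and -3.01 in shNTC cells. Tagln (transgelin), which binds actin in smooth muscle, was at 1.5, 1.49 and 1.33 in shMed12-1 cells, against -0.04, 0.02 and -0.03 in shNTC cells. None of these groups overlapped. Acta1 rose by 1.84 (SE 0.06, adjusted p = 4.0e-15), Acta2 by 1.78 (SE 0.06, adjusted p = 8.2e-16) and Tagln by 1.45 (SE 0.06, adjusted p = 4.0e-14). Of the further Acta2 probes, one gave 1.82 and another 0.50. Gsn (gelsolin), which severs actin filaments, was at -2.48, -2.50 and -2.54 in shMed12-1 cells, against -4.58, -4.53 and -4.53 in shNTC cells. Its rise was 2.04 (SE 0.05, adjusted p = 2.3e-18), with no overlap. Members without a call were villin (Vil1, -0.16) and desmin (Des, 0.10).

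Targets of SRF, the factor that binds the CArG box of muscle and growth-response genes, and of YAP, the effector of the Hippo pathway, moved in the same direction. Of 22 tested, 15 rose and 2 fell (13.4% and 13.3% of all genes), with a median of 0.51. Fhl2, a LIM-domain cofactor, was at -1.09, -1.16 and -1.07 in shMed12-1 cells, against -3.06, -3.13 and -3.07 in shNTC cells. It rose by 1.98 (SE 0.06, adjusted p = 2.0e-16), and Lats2, a Hippo kinase, rose by 1.19. The members that fell were Egr1 (-0.76) and Ier2 (-0.20). To show what the promoters of these genes hold, the 250 bases before to 50 after each RefSeq start (GRCm38.p6) were searched for the CArG box, which reads alike on both strands. It was found in 5 of the 22 contractile genes with a promoter (22.7%) and in 5 of the 17 SRF and YAP targets (29.4%). Vcl, a member of both lists, counts in each. Of the 10993 tested genes with a symbol and a promoter, 1.62% held it. GGAATG on either strand, the core of the TEAD site through which YAP acts, was found in 36.4% of those contractile genes. The share was 52.9% of those targets and 14.8% of the tested genes. A gene was counted once if any of its promoters held a match. Several SRF targets are known as such through their CArG boxes. Stretches of up to 40 bases on each side of the CArG box (in capitals) are shown 5′ to 3′ for 3 genes that rose and 1 contractile gene that did not pass the test.
Acta1 (chr8:123894799-123894888, minus strand): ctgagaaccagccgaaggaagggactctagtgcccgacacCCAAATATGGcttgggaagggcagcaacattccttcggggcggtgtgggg
Actc1 (chr2:114052876-114052962, minus strand): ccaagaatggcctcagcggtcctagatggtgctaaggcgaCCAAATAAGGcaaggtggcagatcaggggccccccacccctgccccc
Fhl2 (chr1:43196808-43196897, minus strand): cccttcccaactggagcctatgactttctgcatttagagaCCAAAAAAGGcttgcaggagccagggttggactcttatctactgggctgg
Vil1 (chr1:74409271-74409360, plus strand): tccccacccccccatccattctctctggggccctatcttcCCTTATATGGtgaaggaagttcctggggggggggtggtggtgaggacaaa
The box starts 73 bases before the start of Acta1, 47 before that of Actc1, 96 before that of Fhl2 and 73 before that of Vil1. Actc1, the cardiac actin, rose by 1.31, while Vil1, which holds a box at the same distance as Acta1, differed by -0.16 and was not called.

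Part of the list of fibroblast and feeder genes rose with the contractile genes. Of 35 tested, 20 rose and 0 fell (13.4% and 13.3% of all genes), with a median of 0.57. The annexin Anxa1 was at -2.89, -2.88 and -2.86 in shMed12-1 cells, against -4.66, -4.69 and -4.56 in shNTC cells. It rose by 1.76 (SE 0.06, adjusted p = 2.0e-15) with no overlap, and the galectin Lgals1 rose by 1.63. Of 12 markers of fibroblasts and feeder cells, 6 rose: Acta2, Tagln, Thbs1, Vim, Pdgfrb and Col1a1. Col1a1 rose by 0.95 (SE 0.27, adjusted p = 0.011) and was no longer called without shMed12-1 replicate 2 or without shNTC replicate 1. The rest of the 12 did not pass the test: Col1a2 differed by 0.36, Col3a1 by 0.77, Dcn by 0.19, Lum by 0.07, Postn by 0.05 and Thy1 by -0.06. The summed Cy5 intensity of the 12 markers was 88895 to 92455 in shMed12-1 cells, against 41183 to 43622 in shNTC cells, and Tagln and Acta2 belong to both lists. The part of feeder or fibroblast RNA in these results was not tested. In the list of basement membrane and matrix genes 10 of 35 rose and 1 fell, against 13.4% and 13.3% of all genes. The member that fell was the laminin chain Lama1 (-1.08). Thrombospondin 1 (Thbs1) rose by 1.13 and Sparc by 0.86.

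Pluripotency genes fell. Of 32 tested members of the list of core and naive pluripotency genes, 18 fell and 0 rose. Among all genes 13.3% fell and 13.4% rose. The median of the list was -0.27. All 10 ES cell markers with a probe were well above background on all 6 arrays, 8 of them were lower, and their summed Cy5 intensity was 384802 to 438535 in shMed12-1 cells, against 500390 to 523624 in shNTC cells. Klf4, a naive factor and LIF target, was at 1.52, 1.57 and 1.63 in shMed12-1 cells, against 2.22, 2.14 and 2.20 in shNTC cells. It fell by 0.61 (SE 0.05, adjusted p = 1.2e-08) and stayed called under every alternative run. Esrrb was at 5.62, 5.64 and 5.93 in shMed12-1 cells, against 6.47, 6.18 and 6.23 in shNTC cells. Esrrb fell by 0.56 (SE 0.11, adjusted p = 0.00066) without overlap, though it was not called in the authors' deposited values.

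The values of the central factors moved more with the array and the slide. Pou5f1 was at 5.51, 5.60 and 6.40 in shMed12-1 cells, against 6.67, 6.48 and 6.68 in shNTC cells. Replicate 3 of shMed12-1 lay just below the controls and the other 2 arrays about 1 log2 unit below them. The difference was -0.78 (SE 0.20, adjusted p = 0.0048), -1.06 without replicate 3, and -0.19 with slide as a block (adjusted p = 0.59). Sox2 was at 6.46, 6.57 and 6.62 in shMed12-1 cells, against 7.31, 7.24 and 7.0 in shNTC cells. It differed by -0.63 (SE 0.17, adjusted p = 0.0088), a call lost with slide as a block (-0.70, adjusted p = 0.11) and in the authors' deposited values. Zfp42 (Rex1) fell by 0.40 (adjusted p = 0.0091), a call that the slide block ended too (adjusted p = 0.0958), and Myc fell by 0.25 (adjusted p = 0.442 in that fit). Klf2 (-0.05), Klf5 (-0.12) and Tbx3 (0.01) did not pass the test. Other naive genes fell: Nr0b1 by 0.77 (adjusted p = 3.4e-05), which was not called in the authors' deposited values, and Tdgf1, the NODAL co-receptor Cripto, by 0.71. In the slide block fit 7 of the 32 were lower and 0 higher (1221 and 1504 of all 22394 genes), with a median of -0.24. Among genes of LIF signalling, which sustains mouse ES cells through STAT3, 4 of 20 rose and 6 fell (13.4% and 13.3% of all genes). With slide as a block 1 was higher and 5 lower. The feedback inhibitor Socs2 fell by 0.55, and the kinase Jak2 rose by 0.73 (adjusted p = 0.27 with slide as a block).

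The primed epiblast list fell too. Of 17 tested genes 11 fell and 1 rose (13.3% and 13.4% of all genes), with a median of -0.33. With slide as a block 8 were lower and 1 higher (1221 and 1504 of all 22394 genes). Fgf15, a fibroblast growth factor of early epiblast and neural tissue, was at 1.14, 1.21 and 1.19 in shMed12-1 cells, against 2.57, 2.34 and 2.38 in shNTC cells. Fgf5, the classical marker of primed epiblast, was at 2.14, 2.20 and 2.13 in shMed12-1 cells, against 3.04, 3.07 and 3.03 in shNTC cells. Neither gene's groups overlapped. Fgf15 fell by 1.25 (SE 0.10, adjusted p = 2.9e-09) and Fgf5 by 0.89 (SE 0.12, adjusted p = 1.0e-05), and the homeobox factor Otx2 fell by 0.56. The member that rose was Rhox5, by 0.62.

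Feedback inhibitors and ligands of the NODAL and activin pathway were among the lowest genes. Lefty2 was at 1.16, 1.22 and 1.27 in shMed12-1 cells, against 2.70, 2.73 and 2.59 in shNTC cells. Lefty1, which like Lefty2 is induced by NODAL and blocks it, was at 4.13, 4.13 and 4.12 in shMed12-1 cells, against 5.27, 5.29 and 5.28 in shNTC cells. Inhbb, the beta B chain of activin, was at 0.93, 0.92 and 0.92 in shMed12-1 cells, against 2.15, 2.25 and 2.28 in shNTC cells. For each of these genes all shMed12-1 arrays lay more than 1 log2 unit below all shNTC arrays. Lefty2 fell by 1.46 (SE 0.12, adjusted p = 5.8e-09), Lefty1 by 1.15 (SE 0.07, adjusted p = 8.3e-11) and Inhbb by 1.30 (SE 0.06, adjusted p = 3.2e-13), with -0.30 for a dimmer Inhbb probe. In the whole list of TGF-beta, NODAL and BMP genes 14 of 34 rose and 8 fell, against 13.4% and 13.3% of all genes. The median was 0.21. Chosen after their values were seen, the BMP targets Id3 (1.02), Id1 (0.78) and Id2 (0.67) and the TGF-beta receptor Tgfbr2 (0.78) were among those that rose. With slide as a block the counts in this list were 8 higher and 7 lower (1504 and 1221 of all 22394 genes).

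Further genes with the lowest differences had varied roles. Aass, an enzyme of lysine breakdown, was at 2.55, 2.59 and 2.74 in shMed12-1 cells, against 4.15, 4.10 and 4.15 in shNTC cells. It fell by 1.51 (SE 0.12, adjusted p = 1.9e-09), the lowest value among called genes with a symbol and no overlap. Cyclin D2 (Ccnd2), which drives the cell cycle through G1, was at -3.14, -3.05 and -2.97 in shMed12-1 cells, against -1.86, -1.81 and -1.76 in shNTC cells. Its groups did not overlap, and 3 probes gave -1.24, -1.06 and -1.17. Ceacam2, a cell adhesion molecule, fell by 1.40, and Meox1, a homeobox gene of the somite, by 1.21 (-0.47 for a second probe). Plk5 fell by 1.20, Ano9 by 1.14, nephrin (Nphs1) by 1.14 and Trim36 by 1.11. The fall of Nphs1 was not called in the authors' deposited values. On the rising side, 3830417A13Rik, an X-linked gene, was at 4.03, 3.95 and 4.04 in shMed12-1 cells, against 1.09, 1.06 and 1.08 in shNTC cells. That difference of 2.93 (SE 0.10, 7.61-fold, adjusted p = 3.1e-15) had no overlap, and a second probe gave 1.74.

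**Figure D2:**
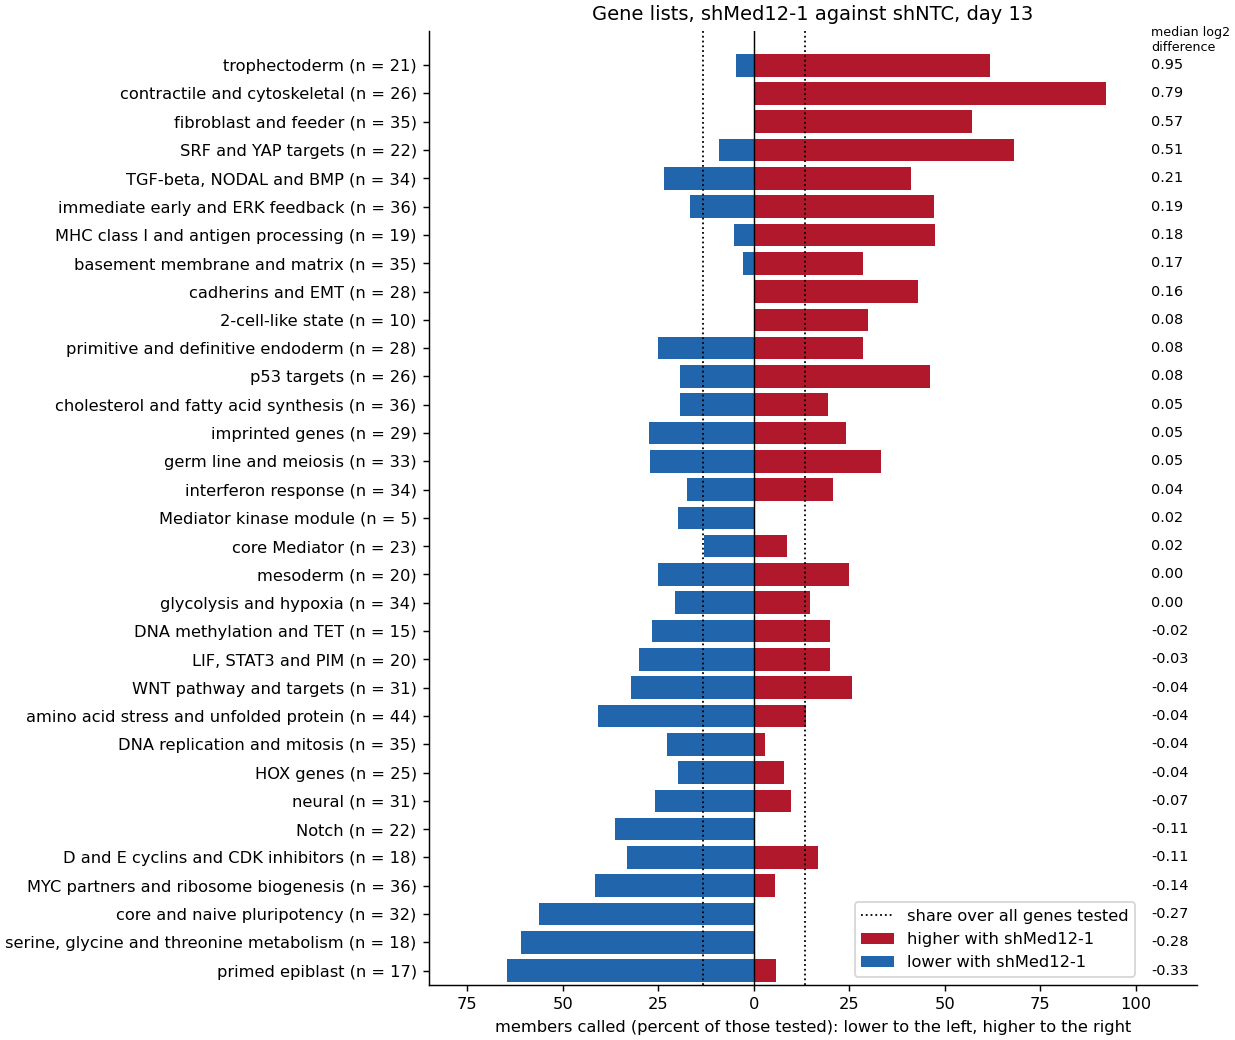
Percent of the tested members of each of 33 gene lists that were called higher (right) or lower (left) in shMed12-1 than in shNTC cells, with the median log2 difference at the right edge and, as dotted lines, the shares over all genes tested. The contractile list reached 24 of 26 members higher and the primed epiblast list 11 of 17 lower.

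Signalling and developmental lists split in both directions. Among all genes 13.4% were called higher and 13.3% lower, the shares against which these counts are to be read. With slide as a block 1504 of 22394 genes were higher and 1221 lower. Of 36 immediate early and ERK feedback genes, 17 rose and 6 fell: Ier5 rose by 1.40, the urokinase receptor Plaur by 1.17, the AP-1 subunit Fosl2 by 0.98 and Phlda1 by 0.81. In the WNT list 8 of 31 rose and 10 fell. The WNT inhibitor Dkk1 rose by 0.98 (0 for a dimmer second probe), and the inhibitors Notum and Sfrp1 fell by 0.87 and 0.76. Of 22 Notch genes 8 fell and 0 rose, with a median of -0.11. The receptor Notch4 fell by 1.02, the fringe enzyme Mfng by 0.63, the effector Hes5 by 0.63 and the ligand Dll1 by 0.62. Neural genes fell in 8 cases and rose in 3 of 31, with Elavl3 lower by 0.81, En2 by 0.71 and Gbx2 by 0.67. Of 20 mesoderm genes 5 rose, including Snai1 (0.61) and Nkx2-5 (0.58), and 5 fell. In the endoderm list 8 of 28 rose, 3 of them the keratins Krt8, Krt18 and Krt19, and 7 fell, among them the endoderm factors Gata6 (-0.61), Sox17 (-0.59) and Foxa2 (-0.49), chosen after their values were seen. HOX genes fell in 5 of 25 cases and rose in 2, 28% called against 26.7% of all genes, and with slide as a block 2 were lower and 1 higher. Hoxa10 fell by 0.50 and Hoxa7 by 0.42. Hoxa5 was not well above background on any shMed12-1 array.

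Growth, stress and metabolic lists also held called genes, next to 13.4% of all genes higher and 13.3% lower. The slide block fit called 1504 of 22394 genes higher and 1221 lower. Serine, glycine and threonine metabolism had 11 of 18 genes lower and 0 higher, with a median of -0.28: phosphoserine phosphatase (Psph) fell by 0.56 (adjusted p = 0.0505 with slide as a block), Shmt1 by 0.44 and Mthfd2 by 0.40. With slide as a block 4 were lower and 1 higher. MYC partners and ribosome biogenesis had 15 of 36 lower and 2 higher, among them Mycn (-0.58), Mxd3 (-0.36) and the nucleolar Rrp12 (-0.35), and with slide as a block 3 were lower and 0 higher. DNA replication and mitosis had 8 of 35 lower and 1 higher (E2f2, -0.53), 25.7% called against 26.7% of all genes. Among cyclins and their inhibitors, 3 of 18 rose and 6 fell. The inhibitors Cdkn2b and Cdkn2a rose by 0.89 and 0.64. Targets of p53 rose in 12 of 26 cases and fell in 5: Pmaip1 (Noxa) rose by 0.88, the desmosome protein Perp by 0.82, the kinase Plk2 by 0.81 and Gadd45g by 0.71. The amino acid stress and unfolded protein list had 18 of 44 lower and 6 higher, with Chac1 lower by 0.66 and Nupr1 by 0.60, while Atf3 rose by 0.65. Ddit4 was at -1.71, -1.46 and -0.81 in shMed12-1 cells, against -0.68, -0.64 and -0.69 in shNTC cells, and its call (-0.65, adjusted p = 0.049) was lost with slide as a block (0.07, adjusted p = 0.904). In the glycolysis and hypoxia list 5 of 34 rose and 7 fell, with Pfkfb3 higher by 0.75, Pdk1 lower by 0.66 and Pfkp lower by 0.56. Cholesterol and fatty acid synthesis had 7 of 36 on each side, with the sterol exporter Abcg1 lower by 1.05, Tm7sf2 lower by 0.57, and Mylip and Sc5d higher by 0.63 and 0.50.

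In the MHC class I list 9 of 19 rose and 1 fell: H2-T10 rose by 0.82, B2m, the shared light chain, by 0.72 and Tapbp by 0.49. With slide as a block 3 were higher and 1 lower. Over all 22394 genes that fit called 1504 higher and 1221 lower. Genes of the H2-T family are close copies of each other, and how far a probe binds its neighbours was not tested. Interferon genes rose in 7 of 34 cases and fell in 6 (13.4% and 13.3% of all genes; with slide as a block 2 were higher and 6 lower), with the GTPases Gbp2b and Gbp2 higher by 0.63 and 0.55 and Ifitm1 and Dhx58 lower by 0.55 and 0.48. Of 29 imprinted genes 7 rose and 8 fell. Igf2, the growth factor expressed from the paternal copy, was at 1.96, 1.91 and 2.08 in shMed12-1 cells, against 0.65, 0.62 and 0.62 in shNTC cells. It rose by 1.35 (SE 0.05, adjusted p = 4.0e-14) with no overlap, and Sgce rose by 0.73, Peg10 by 0.65 and Cd81 by 0.57. For Peg10 the slide block ended the call (0.29, adjusted p = 0.245). Germ line and meiosis genes rose in 11 of 33 cases and fell in 9, with the helicase Ddx4 (Vasa) higher by 0.92, Tex19.1 by 0.80 and Nlrp4f by 0.72, and Tcl1 lower by 0.65. The slide block left 4 higher and 4 lower, and with the background fitted on all spots 3 were higher and 7 lower, without Ddx4 and Nlrp4f. In the DNA methylation list the methyltransferase Dnmt3a fell by 0.48 and Apobec1 by 0.51, while Gadd45b rose by 0.90 and Mbd1 by 0.50, among 3 of 15 higher and 4 lower. Among 10 tested genes of the 2-cell-like state, 3 rose (Arg2, Usp17la and P4ha2), by 0.33 at most. The groups of Usp17la, one of many near-identical gene copies, overlapped, and none of these 3 calls held when arrays were centred on their median.

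The hairpins against Med12 differed in many genes. Med12 itself fell by 1.07 with shMed12-1 and by 0.88 with shMed12-2 against shNTC, and differed between the hairpins by -0.18 (SE 0.08, adjusted p = 0.083). In the direct test 5983 of 22394 genes (26.7%) differed, 3091 higher (13.8%) and 2892 lower (12.9%) in shMed12-1 cells, while centring each array on its median, without loess, left 1607 higher and 769 lower. The hairpins' arrays did not overlap for 42.9% of genes. Differences past 2-fold numbered 68 higher (0.304%) and 64 lower (0.286%). No slide held both hairpins, and with slide as a block 3109 genes were called. Both sets of arrays are compared with the same shNTC arrays in what follows, so their differences from shNTC are given side by side.

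Epithelial and placental genes were higher with shMed12-1. Krt7 differed between the hairpins by 2.01 (SE 0.09, adjusted p = 3.7e-13), its differences from shNTC being 2.54 with shMed12-1 and 0.53 with shMed12-2. Gsn differed by 1.93 (2.04 and 0.11 against shNTC), Krt18 by 1.18 (2.58 and 1.40), Rhox6 by 1.30 (2.16 and 0.86) and Igf2 by 1.15 (1.35 and 0.20). Of 21 trophectoderm genes, 13 were higher with shMed12-1 than with shMed12-2 and 0 lower (13.8% and 12.9% of all genes). The median was 0.84. Of 26 p53 targets 13 were higher and 1 lower. The contractile list, by contrast, had 10 of 26 higher, 4 lower and a median of 0.09 between the hairpins. Acta1 differed by -0.03 (1.84 and 1.88 against shNTC, adjusted p = 0.75) and Tagln by 0.12 (1.45 and 1.33), while Acta2 was 0.29 lower with shMed12-1 (1.78 and 2.07, adjusted p = 0.00044). The transporter Flvcr2 (1.85), the placental gene Plac8 (1.97), Cidea (1.74) and the histidine ammonia-lyase gene Hal (1.65) were also among the 6 highest. For Hal both differences from shNTC were below 0, at -0.32 with shMed12-1 and -1.97 with shMed12-2.

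Primed epiblast genes and the NODAL inhibitors Lefty1 and Lefty2 were lower with shMed12-1. Fgf5 was at 2.14, 2.20 and 2.13 in shMed12-1 cells, against 5.03, 4.45 and 5.13 in shMed12-2 cells, and the shNTC values given above lay between them. It differed by -2.71 (SE 0.12, adjusted p = 8.2e-13). Lefty1 differed by -1.41 and Lefty2 by -1.34, with 0.26 and -0.12 for shMed12-2 against shNTC. The whole list of TGF-beta, NODAL and BMP genes had 10 higher and 11 lower of 34 (13.8% and 12.9% of all genes). The median was 0.05. Of the 17 primed epiblast genes 11 were lower and 0 higher with shMed12-1, with a median of -0.53. Other genes ran the other way: the naive factor Tbx3 was 1.42 higher with shMed12-1 (0.01 and -1.41 against shNTC, adjusted p = 4.3e-12), the naive factor Klf4 0.81 higher (-0.61 and -1.43) and the activin chain Inhbb 0.93 higher (-1.30 and -2.23). Pou5f1 was 0.72 lower with shMed12-1 (-0.78 and -0.06 against shNTC, adjusted p = 0.0084).

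**Figure D3:**
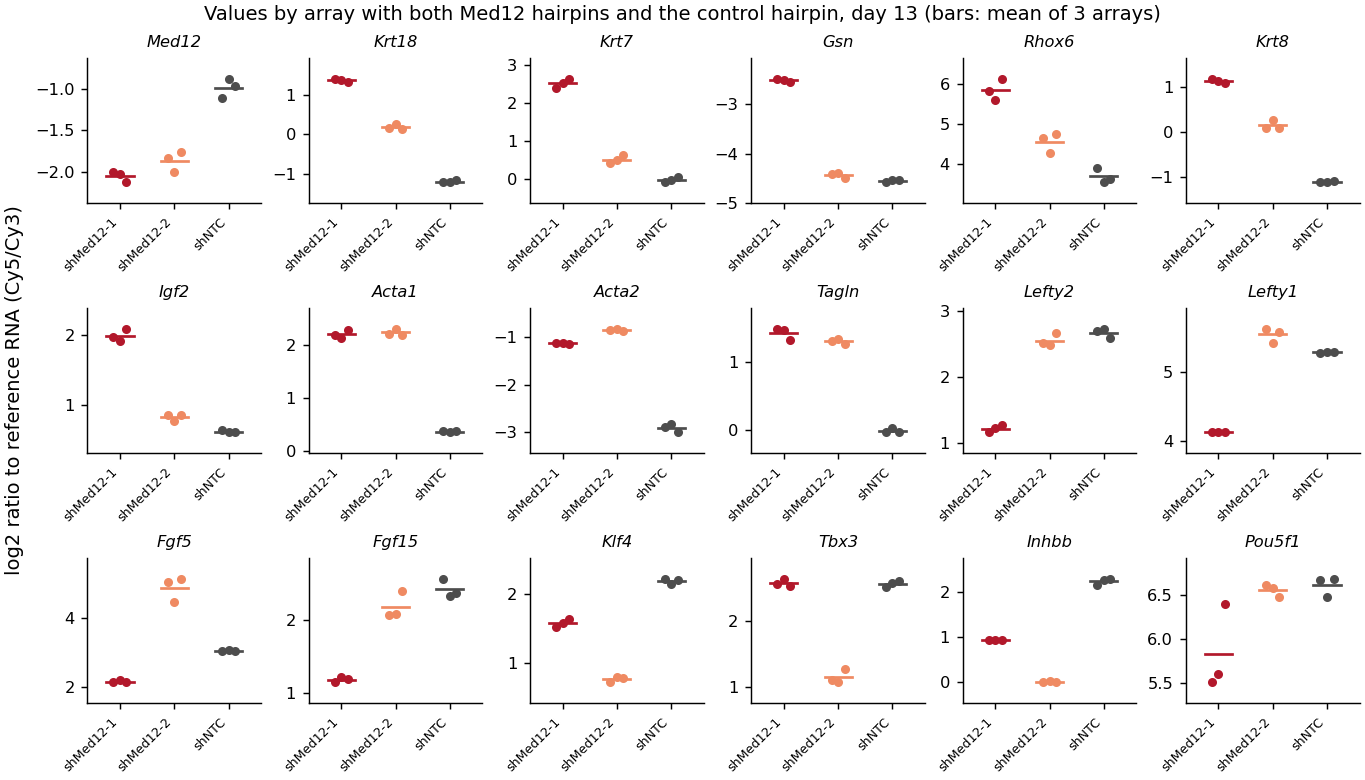
Log2 ratio to the reference RNA (vertical axis, own scale per gene) of 18 genes on each day 13 array with shMed12-1, shMed12-2 or shNTC, with bars for the mean of 3 arrays. Krt7, Gsn and Lefty2 set shMed12-1 apart (Lefty2 at 1.16 to 1.27) and Acta1 and Tagln are high with both hairpins. Among the groups shown, Tbx3 is low only with shMed12-2.

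The other genes with the lowest difference between the hairpins encode liver secretory proteins and varied widely among the shMed12-2 arrays. Fgb (fibrinogen beta) was at 0.01, 0.13 and -0.17 in shMed12-1 cells, against 5.56, 1.28 and 3.89 in shMed12-2 cells. Albumin (Alb) was at -0.10, 0.25 and -0.05 in shMed12-1 cells, against 4.32, 1.11 and 2.98 in shMed12-2 cells. The shMed12-1 arrays lay near the shNTC arrays (Alb 0.04, 0.24 and 0.27), with no difference called, and the spread was among the shMed12-2 arrays. Fgb and Alb were not well above background on any shMed12-1 array, so their differences have no exact size. Those of Ambp (-2.80), Fgg (-2.38) and Saa2 (-2.26) had SEs of 0.53 to 0.70. In a fit of the shMed12-1 and shMed12-2 arrays alone, none of these 3 was called.

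Against the mean of the Cdk8 hairpins, 5959 of 22394 genes (26.6%) differed, 3046 higher (13.6%) and 2913 lower (13%) in shMed12-1 cells. Differences past 2-fold numbered 72 higher (0.322%) and 36 lower (0.161%), and with slide as a block 5020 genes were called. Each shMed12-1 array shared a slide with 1 day 13 array of a Cdk8 hairpin, so differences within a slide can be read. Med12 differed by -1.13, -1.17 and -1.26 within slides 4, 5 and 6, and by -1.17 in the fit. Krt18 differed by 2.36, 2.32 and 2.11 within slides and by 2.27 in the fit (adjusted p = 1.5e-19). Krt7 differed by 2.11, 2.32 and 2.46 within slides (2.33 in the fit), Rhox6 by 2.38, 2.10 and 2.36 (2.18) and Gsn by 2.26, 2.19 and 1.74 (2.02). Each of these genes kept its direction on all 3 slides. 3830417A13Rik (2.16) and Plac8 (1.93) made up the 6 highest.

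Contractile genes rose with shMed12-1 beyond their level with the Cdk8 hairpins. Of 26, 20 were higher and 1 lower (13.6% and 13% of all genes), with a median of 0.40. Acta1 was 1.16 higher than with the Cdk8 hairpins, whose own differences from shNTC were 0.62 and 0.73. Acta2 was 0.80 higher, by 0.37 and 0.39 on the slides shared with shCdk8-1 and by 1.16 on the slide shared with shCdk8-2. Trophectoderm genes were higher in 14 of 21 cases and lower in 0, with a median of 0.84. The lowest genes in this comparison were the neuronal vesicle protein Nsg2 (-2.16), the zinc transporter Slc39a8 (-1.68), Meox1 (-1.61), Ccnd2 (-1.58), the protease Napsa (-1.43) and the collagen Col2a1 (-1.41). Within slides Nsg2 differed by -2.88, -2.45 and -1.59 and Ccnd2 by -1.70, -1.78 and -1.47. For Nsg2, Slc39a8, Meox1, Ccnd2, Napsa and Col2a1 part of the gap came from a higher mean level with the Cdk8 hairpins than with shNTC. Nsg2 was 1.79 and 0.54 above shNTC with the Cdk8 hairpins, next to -0.99 for shMed12-1. Against shNTC, Napsa differed by -0.90 and Col2a1 by -0.95 (-0.12 for a second Col2a1 probe) with shMed12-1. Primed epiblast genes were lower in 15 of 17 cases and higher in 1. Pou5f1 differed by -0.75 and -0.72 on the slides with replicates 1 and 2 but by 0.36 on that with replicate 3.

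Ccl4, a chemokine, had the highest fold change against shNTC but followed the slide. It was at -3.74, -1.96 and 0.31 in shMed12-1 cells, against -4.65, -5.09 and -5.26 in shNTC cells, where it was not well above background on any array. The groups did not overlap, the difference was 3.20 (SE 1.13, adjusted p = 0.040) and the rise at least 8.73-fold in Cy5, measured against the signal of the shNTC arrays. On slide 5 the other 2 arrays, both shCdk8-1, were at -0.90 and -0.95, and on slide 6 shCdk8-2 was at 0.41 and shCdk8-1 at -1.71. Those on slide 4, also shCdk8-1, were at -3.32 and -4.52. With slide as a block the difference was -0.42 (adjusted p = 0.70), within slides it was -0.42, -1.06 and -0.10 against the Cdk8 arrays, and without shMed12-1 replicate 3 it was 2.15 (adjusted p = 0.21). Among the 10 other genes named here with the highest fold changes, the fit with slide as a block gave 1.73 to 2.82, all called.

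**Figure D4:**
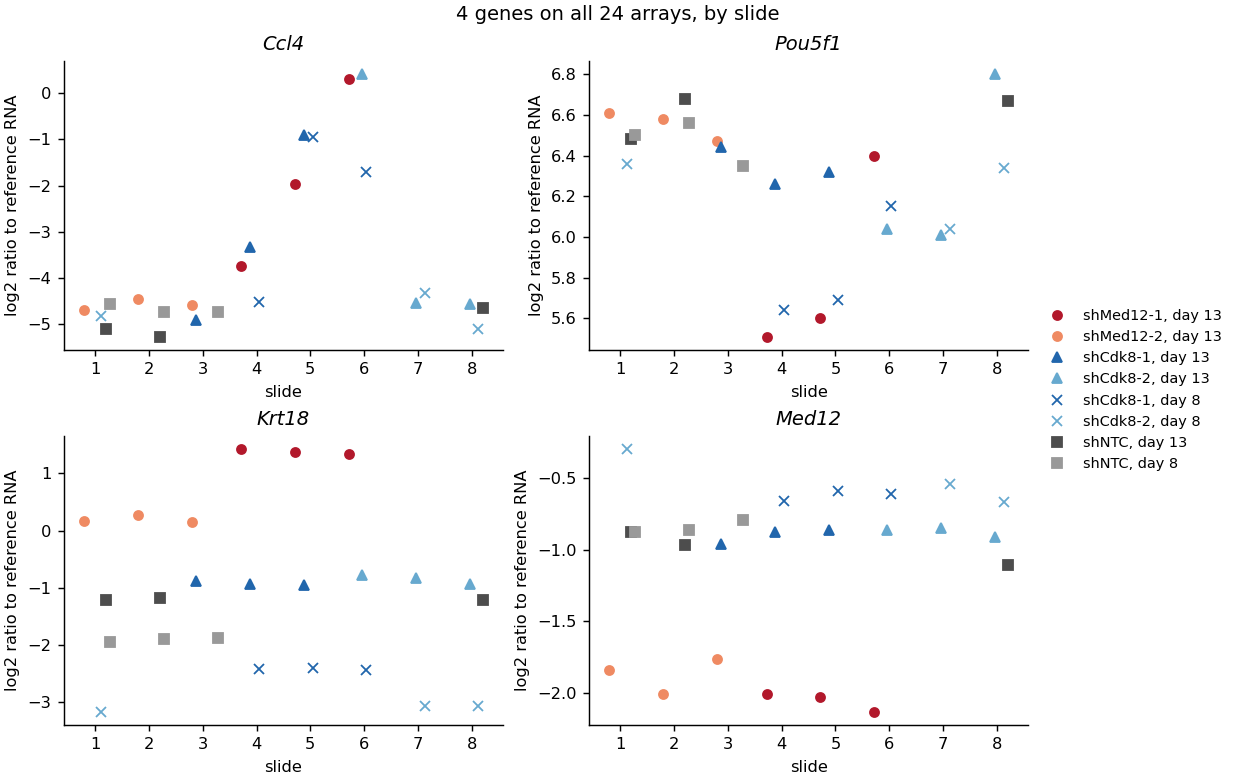
Log2 ratio to the reference RNA (vertical axis, own scale per gene) of Ccl4, Pou5f1, Krt18 and Med12 on all 24 arrays, placed by slide (horizontal axis), with colour and symbol for the group and day. Ccl4 is high on slides 5 and 6, up to 0.41, with shMed12-1, shCdk8-1 and shCdk8-2, the hairpins on those slides, while Krt18 follows the group and not the slide.

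Genes of chromosome 1 lay higher in shMed12-1 cells by a small and even amount. Over 748 genes of chromosome 1 the median difference from shNTC was 0.075, with 195 called higher and 54 lower. The medians of the other autosomes ran from -0.019 to 0.012 and that of the X chromosome was 0.001. By array, the median of chromosome 1 relative to the mean of shNTC was 0.083, 0.086 and 0.067 in shMed12-1 cells, against -0.092 to 0.005 on the other 21 arrays. Every shMed12-1 array was above every other array on this chromosome. The only other chromosome where this held was 9, with 0.009 to 0.018 in shMed12-1 cells, against at most 0.006 on the other arrays. Divided by gene order into 4 stretches of 187 genes, the chromosome had medians of 0.056, 0.080, 0.098 and 0.078, with more genes higher than lower in each (51 against 18, 48 against 13, 50 against 13 and 46 against 10). Against shMed12-2 the median was 0.095 and against the Cdk8 hairpins 0.102. The chromosome was singled out after its values were seen, and genes that share a chromosome are not independent.

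**Figure D5:**
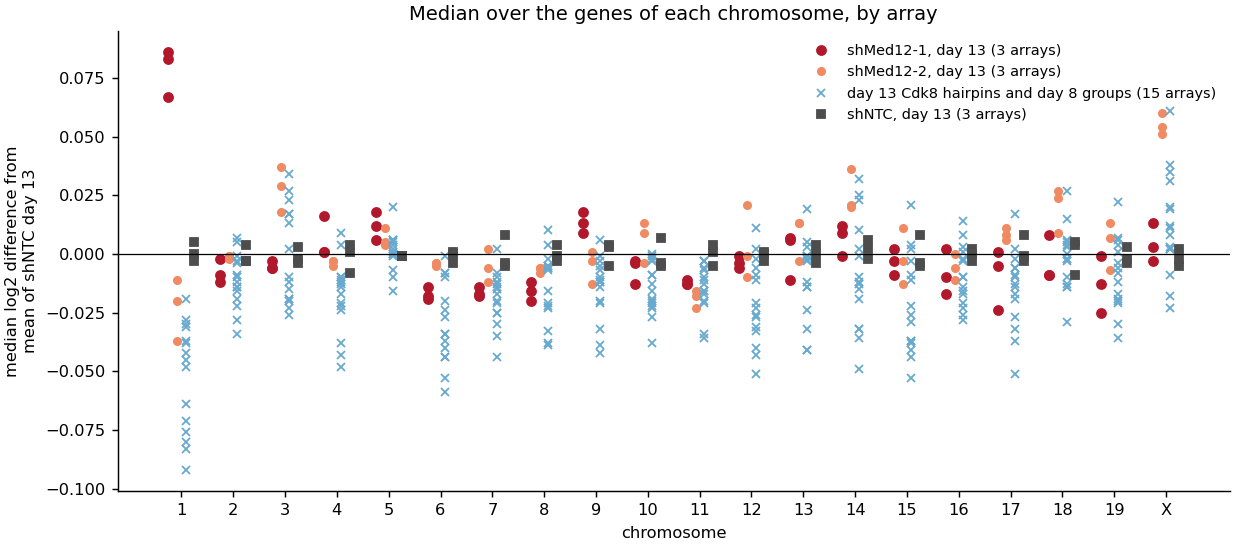
Median over the genes of each chromosome (horizontal axis) of the log2 difference from the mean of the day 13 shNTC arrays (vertical axis), with 1 point per array. The shMed12-1 arrays lie at 0.067 to 0.086 on chromosome 1 and all 21 other arrays at or below 0.005.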

How the data were processed

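The arrays are 2-colour Agilent arrays with 45018 spots, 1639 of them controls; 750 ng of labelled cRNA was used per the labels' protocols, with the sample in Cy5, the reference in Cy3 and no dye swap. The deposited scanner files hold spot and background intensities and a log10 ratio, made with Feature Extraction 10.7 per the submitters' processing notes. A further table deposited by the authors gives log2 ratios for these arrays, which match the scanner's log ratios on every array. From the deposited median intensities, limma 3.58.1 in R 4.3.3 corrected the background (normexp, offset 50, its parameters fitted without outlier spots and without the lowest 0.1% of background-subtracted spots), then applied loess within each array. A probe was kept if, in at least 1 of 8 groups, each of the 3 arrays measured it well above background in Cy5, the brightest probe stood for a gene, and 22394 genes were tested, 13732 with a symbol from the files or the RefSeq table. One limma fit over 24 arrays (16 residual degrees of freedom) gave each contrast, with Benjamini-Hochberg adjustment over all genes and a threshold of 0.05. On data simulated for shMed12-1 against shNTC with 200 changed genes among 22394, 100% of changes of 1 log2 unit and 84% of 0.5 were recovered, with 5 false calls. The simulated noise was independent for each gene and array and held no slide effect. The count of false calls therefore does not cover calls that follow the slide. The number of arrays limits the precision.

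Named genes were the 12 highest and 12 lowest called genes with a symbol whose groups do not overlap, up to 4 called members of each list by absolute difference, the kinase module, 10 pluripotency genes, and the 6 highest and lowest of each further comparison. Members and lists were chosen with earlier results of these data known. Of list members, 72 had no matched probe and 46 no kept probe; Nanog, Med13 and Med12l were not analysed here, and some items the rule names are not reported here. Replicate numbers did not pair the arrays (correlations of deviations 0, 0.09 and 0 between shMed12-1 and shNTC). Alternatives covered background, normalization, filter, slide, replicate block and leaving out single arrays.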

Additional observations from a re-analysis of the deposited data

Results flagged for a closer look

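For 386 genes the hairpins against Med12 were called in opposite directions against the shared shNTC arrays. Since both share those arrays, a call in the direct test of shMed12-1 against shMed12-2 follows almost from the choice. The 10 named genes among them are given with their direct difference. Fgf5 differed by -2.71, with -0.89 for shMed12-1 and 1.82 for shMed12-2 against shNTC. Plac8 differed by 1.97 (0.79 and -1.18) and the zinc transporter Slc39a8 by -1.88 (-0.87 and 1.01). The collagen Col2a1 differed by -1.85 (-0.95 and 0.90). A second Col2a1 probe gave -0.95 between the hairpins and -0.12 for shMed12-1 against shNTC. Its fall with shMed12-1 thus rests on the brighter probe. Cidea differed by 1.74 (0.39 and -1.35) and Lefty1 by -1.41 (-1.15 and 0.26). Arg2 differed by 0.96 (0.33 and -0.63), Hoxa5 by -0.80 (-0.45 and 0.36), P4ha2 by 0.72 (0.27 and -0.45) and Usp17la by 0.66 (0.30 and -0.37). Hoxa5 was not well above background on any shMed12-1 array, so its values there carry no exact size. The shMed12-1 calls against shNTC were lost with a slide block for Col2a1, Cidea, Arg2, Hoxa5 and P4ha2. Groups of 3 arrays were too small for a test of outlying arrays.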

How the results depend on the processing

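Of 135 named genes called against shNTC, 94 were called under every alternative run; 25 lost the call with slide as a block, 13 with the background fitted on all spots, 10 with median centring, 9 when some single array was left out and 0 with a replicate block. With median centring the counts of called genes were 2391 against shNTC, 2376 against shMed12-2 and 2611 against the Cdk8 hairpins. A slide block gave 2725 against shNTC and 3109 against shMed12-2. With the background fitted on all spots and shMed12-1 replicate 3 left out, 3964 genes were called against the Cdk8 hairpins. Leaving out 1 array of the groups compared gave 4817 to 5220 against shNTC, 4886 to 5058 against shMed12-2 and 4854 to 5866 against the Cdk8 hairpins. The replicate block gave 5956, 5954 and 6012, and changed no call of a named gene. Against shNTC, the sign turned for Ccl4 (-0.42) and Ddit4 (0.0731) with a slide block, and for Cidea (-0.0851) and Arg2 (-0.0666) with the background fitted on all spots; the cause was not tested. Because no slide held shMed12-1 with shNTC or shMed12-2, the slide block rests on the other groups. Aquantile normalization between arrays leaves log ratios untouched by construction and so tests nothing here, although it is among the alternatives run. The authors' deposited values match the scanner's log ratios, so the runs on each are not separate alternatives. Dim probes such as Hoxa5 carry only bounds.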

Other observations

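Liver genes were high on several arrays of other groups. Fgb was at 5.56, 1.28 and 3.89 on the shMed12-2 arrays and at 2.40 on shCdk8-1 day 13 replicate 3, while the shMed12-1 arrays stayed between -0.17 and 0.13. Fgb was also at 2.31 on shCdk8-2 day 8 replicate 2 and at 1.68 on the control array shNTC day 8 replicate 3. Alb was at 4.32, 1.11 and 2.98 on the shMed12-2 arrays, at 1.05 on the same shCdk8-1 array, at 2.91 on the shCdk8-2 array and at 1.42 on that control array.

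The X chromosome had a median difference of -0.057 between shMed12-1 and shMed12-2 over 439 genes, against 0.001 between shMed12-1 and shNTC. Markers of mesoderm summed to a Cy5 intensity of 608 to 653 in shMed12-1 cells, against 677 to 691 in shNTC cells. Markers of neural cells summed to 8993 to 9507 in shMed12-1 cells, against 10099 to 10614 in shNTC cells. The endoderm markers summed to 14298 to 16237 in shMed12-1 cells, against 10236 to 10433 in shNTC cells, with 2 of 10 tested markers higher (Sparc and Col4a1) and 5 lower.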
